A study of Drosophila melanogaster with 6 samples.

Results

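The proteasome subunit genes were described in clock neurons of the adult Drosophila melanogaster brain, the small set of neurons that keep daily time. They were taken by symbol from the gene list of the deposited counts: every gene whose symbol begins with Prosalpha, Prosbeta, Rpn and a digit, or Rpt and a digit. This gave 47 of 17868 listed genes, of which 32 are somatic subunits and 15 are paralogs whose symbols carry T or R after the number. In Prp3-RNAi flies the Clk-GAL4 driver expressed both a nuclear green fluorescent protein (UAS-GFP-NLS) and a hairpin against Prp3 (UAS-Prp3-RNAi), a spliceosome protein. In control flies, labelled wildtype, Clk-GAL4 expressed UAS-GFP-NLS alone, without a hairpin transgene. Both groups thus carried driver and reporter, the hairpin was expressed where Clk-GAL4 is active, and 1 hairpin line was used. Both groups spent 5 days under light-dark cycles with 12 h of light and were taken at zeitgeber time 14, counted in hours from lights-on. About 2000 fluorescent cells that excluded a dead-cell dye were sorted per library, and polyadenylated RNA was sequenced in 3 libraries per group. The titles pair each control library with a Prp3-RNAi library, and pairs share the library number used here.

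The proteasome is the large protease that degrades proteins tagged with ubiquitin. Its core particle stacks rings of alpha subunits, which gate the entrance, around rings of beta subunits, of which Prosbeta1, Prosbeta2 and Prosbeta5 carry the proteolytic sites. The regulatory particle that caps it has a base, with the Rpt ATPases that unfold substrates and with large scaffold subunits and ubiquitin receptors, and a lid, where Rpn11 removes the ubiquitin chain. In clock neurons the proteasome degrades the clock proteins PER and TIM each day. In the fly, several subunits have a second gene copy that is used mainly in the male germ line. The 15 members with T or R symbols are called testis-type paralogs here, by symbol alone. Their use in the germ line was not measured.

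The libraries held 28980608 to 30637247 gene counts in the Prp3-RNAi group and 24477244 to 32551739 in the control group. Prp3 (FBgn0036915, chromosome 3L, 19910300 to 19912504, build BDGP6.54) had 27.0, 28.3 and 10.8 CPM (counts scaled by TMM to a common library total) in Prp3-RNAi libraries 1 to 3, against 45.6, 68.8 and 29.4 CPM in control libraries 1 to 3. Groups were compared by edgeR's quasi-likelihood test with the pair as a block, and adjusted p-values (Benjamini-Hochberg, over all tested genes) come from it unless another tool is named; a gene was called below 0.05. The targeted gene was lower in each pair, at a log2 fold change of -1.16 (SE 0.24), but was not called (edgeR adjusted p = 0.384); DESeq2 called it (adjusted p = 0.00883). All 7 clock neuron markers (tim, per, Clk, vri, Pdp1, cry and Pdf) had counts in each library, and their summed level ran from 2363 to 22352 CPM in Prp3-RNAi and from 5280 to 19624 CPM in control libraries. Of the 7, edgeR called 0, beside 0% of tested genes. Only cry had an unadjusted p-value below 0.05, beside 9.98% of tested genes. It had 85.2, 81.1 and 90.9 CPM in Prp3-RNAi and 222, 190 and 105 CPM in control libraries, without overlap. The groups of vri did not overlap either, at 165, 238 and 227 CPM in Prp3-RNAi and 322, 256 and 251 CPM in control libraries. Groups without overlap in this direction were seen for 5.34% of tested genes. The peptide gene Pdf, which marks a subset of clock neurons, differed widely within both groups: 302, 155 and 19961 CPM in Prp3-RNAi libraries, against 15942, 2566 and 17385 CPM in control libraries. Summed glia markers ran from 344 to 556 CPM in Prp3-RNAi libraries and from 297 to 754 CPM in control libraries. Of these, repo, which defines glia, stood at no more than 1.56 CPM in any library. Exons of repo overlap those of CG7156, and reads in the shared stretch were dropped, so its level may be understated. Each other glia marker reached a higher level than repo did, up to 502 CPM for Gs2 in control library 3. The 4 blood cell markers did not move together. Hml and NimC1 stood at 45.9 and 29.0 CPM in control library 3 and under 1 CPM in each of the other 5 libraries, and Col4a1 at 8.15 CPM in Prp3-RNAi library 3, 26.3 CPM in control library 3 and under 1 CPM elsewhere. Pxn was lowest in control library 3, at 11.6 CPM, beside 43.7 to 60.5 CPM in Prp3-RNAi libraries and 51.1 and 72.9 CPM in the other control libraries. Nothing in the labels says whether libraries came from separate dissections. The p-values therefore measure only the spread between these libraries, and with the block the part left after the pair is fitted.

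The somatic subunits were well expressed, at levels that were similar for most of them. Level per length is given in TPM, counts per kilobase of annotated exon scaled to the same total in each library. Of the 32 somatic subunits, 31 had 821 to 15557 counts in every library and passed the filter on low counts. Their mean over the 6 libraries ran from 32.2 to 710 TPM with a median of 248 TPM, and 27 of 31 lay within 2-fold of that median. All 31 lay above the median of the tested genes, 24.5 TPM. The group medians were 258 TPM in Prp3-RNAi libraries and 241 TPM in control libraries, and the coefficient of variation across subunits was 48.3% in Prp3-RNAi and 50.4% in control.

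**Figure D1:**
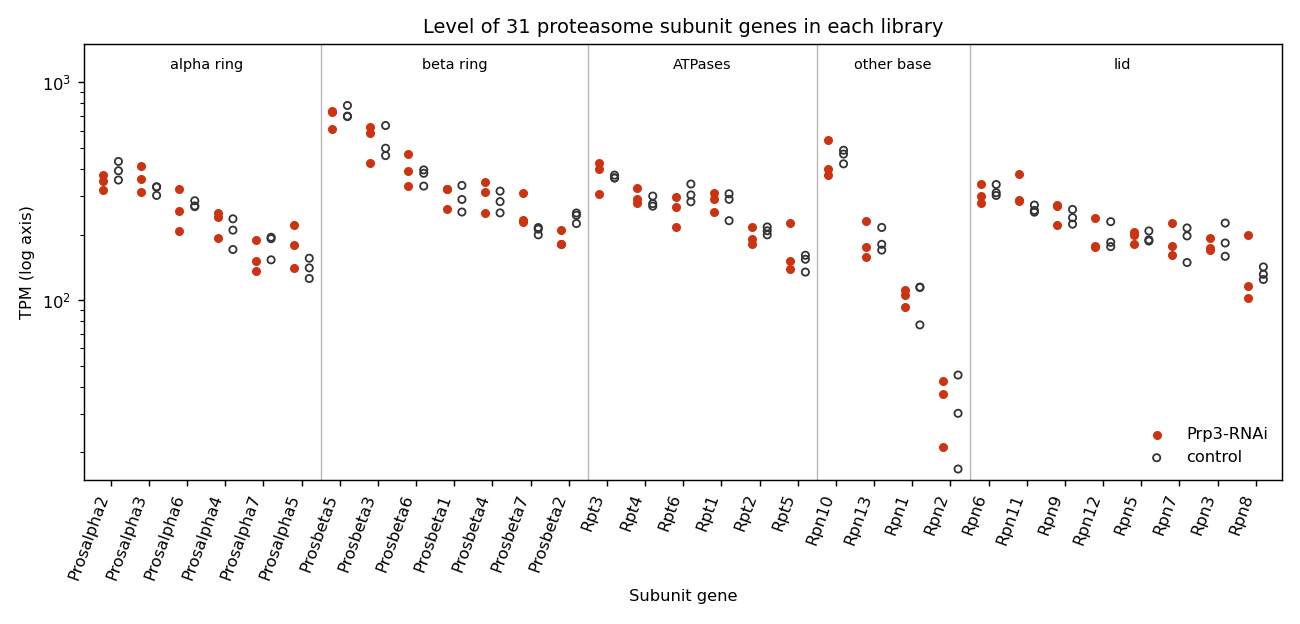
TPM (log axis) of the 31 measured somatic subunit genes, by part of the proteasome and in order of level within each part; filled red points are the 3 Prp3-RNAi libraries and open points the 3 control libraries. Prosbeta5 stood highest at 710 TPM on average and Rpn2 lowest at 32.2 TPM, and in both groups most other subunits lay close to the median of 248 TPM.

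In the beta ring, mean levels over the 6 libraries ran from 215 to 710 TPM. Prosbeta5 (FBgn0029134, chromosome 2R, 10819978 to 10821178), the subunit with chymotrypsin-like activity, was the highest of all subunits, at 737, 613 and 728 TPM in Prp3-RNAi libraries and 783, 700 and 697 TPM in control libraries. Prosbeta3 (FBgn0026380, chromosome 3R, 9005313 to 9006226), a ring subunit without a proteolytic site, followed with 622, 426 and 585 TPM in Prp3-RNAi libraries and 498, 461 and 633 TPM in control libraries. Prosbeta5 exceeded Prosbeta3 in each library, although their ranges over the libraries overlapped. The other catalytic subunits were lower. Prosbeta1 (FBgn0010590, chromosome 2R, 16013805 to 16014787), with caspase-like activity, had 322, 262 and 325 TPM in Prp3-RNAi and 254, 290 and 336 TPM in control libraries. Prosbeta2 (FBgn0023174, chromosome 3L, 14999951 to 15001319), with trypsin-like activity, had the lowest mean of the ring over the 6 libraries, at 209, 181 and 181 TPM in Prp3-RNAi and 245, 225 and 251 TPM in control libraries. In the control libraries alone Prosbeta7 was lower, at 199, 215 and 212 TPM. The subunits that complete the ring, Prosbeta6, Prosbeta4 and Prosbeta7, averaged 385, 295 and 233 TPM over the 6 libraries.

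The measured alpha subunits spanned 160 TPM for Prosalpha5 to 372 TPM for Prosalpha2, and the ATPases 161 TPM for Rpt5 to 373 TPM for Rpt3, as means over the 6 libraries. The lid and the ATPases were similarly even, with coefficients of variation of 27.2% across the 8 lid subunits and 28.0% across the 6 ATPases. In the lid, the deubiquitinase Rpn11 averaged 290 TPM, Rpn6 stood highest at 312 TPM and Rpn8 lowest at 136 TPM. The non-ATPase subunits of the base were the least even, at 94.4%. Among them, the ubiquitin receptor Rpn10 (FBgn0015283, chromosome 3L, 21537000 to 21538582) had 542, 399 and 374 TPM in Prp3-RNAi and 488, 469 and 423 TPM in control libraries. The scaffold subunit Rpn1 (FBgn0028695, chromosome 3L, 19915051 to 19918160) had 111, 106 and 93.3 TPM in Prp3-RNAi and 114, 115 and 77.0 TPM in control libraries. The scaffold subunit Rpn2 (FBgn0028692, chromosome 3R, 29153524 to 29157255) had 42.5, 37.3 and 21.2 TPM in Prp3-RNAi and 45.3, 30.2 and 16.8 TPM in control libraries, below every other measured subunit in every library. Rpn1 and Rpn2 have the longest annotated exon lengths of the 31, 3041 and 3412 bases, against a median of 1393. Across the 31 subunits the rank correlation of mean TPM with exon length was -0.46, and across 8668 tested genes -0.21. Length enters TPM itself, so the points of this description share it.

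Prosalpha1 (FBgn0263121, chromosome 2R, 7827303 to 7828678), an alpha ring subunit, was nearly without counts. It had 0 counts in the 3 Prp3-RNAi libraries and 0, 0 and 3 counts in control libraries 1 to 3, while each other somatic subunit had at least 821 counts in every library. Its neighbour on the same strand, listed as CG30382 and named Prosalpha1R in the annotation (FBgn0050382, 7830413 to 7831771), had 0 counts in all libraries but control library 3, with 8. Both genes are annotated with exons of 580, 177 and 100 bases, which hold the whole coding sequence in each. The files keep multimapping reads in a line of their own, outside the gene counts. That line took 6.45% to 9.35% of the reads of a Prp3-RNAi library and 6.37% to 9.89% of a control library, and how many of them came from this pair was not tested. The identity of the sequences was not measured, and no level is given for Prosalpha1.

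The comparison of Prp3-RNAi with control asks whether transcripts of the proteasome differed in flies that expressed the hairpin against Prp3. No subunit gene was called. In edgeR, 0 of 33 tested members were called, as were 0 of 8708 tested genes (0% of them), with 869 genes at an unadjusted p-value below 0.05. Adjusted p-values of the 31 somatic subunits lay between 0.427 and 0.967 in edgeR. DESeq2 called 380 genes (4.36%) but 0 members, and its smallest adjusted p-value among the somatic subunits, for Prosbeta2, was 0.0748. The other fits also called 0 members: of all genes they called 0.0919% without the pair as a block, 0.0459% with limma-voom, 0.0822% when genes with at least 1 count were kept, 0.0442% without pair 1, 0.034% without pair 3, and 0% otherwise. Unadjusted p-values below 0.05 were found for 3 members (9.09% of 33), beside 9.98% of all tested genes. All 3 were lower in Prp3-RNAi and 0 were higher, where 5.27% of tested genes were lower and 4.71% higher at this level. Without the block there was 1 such member, beside 4.83% of genes. Without pair 1 there were 2, beside 8.35%, without pair 2 there were 0, beside 5.99%, and without pair 3 there was 1, beside 7.19%. The member found without pair 3 was the paralog Rpt3R, which was higher in Prp3-RNAi.

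Prosbeta2 had the lowest fold change of the somatic subunits. It had 105, 89.6 and 108 CPM in Prp3-RNAi libraries 1 to 3, against 139, 117 and 161 CPM in control libraries 1 to 3. Every Prp3-RNAi library lay below every control library, which held for 1 of the 31 somatic subunits and for 5.34% of tested genes. The opposite order, with every Prp3-RNAi library above, was seen for 0 subunits and for 6.27% of tested genes. The fitted log2 fold change of Prosbeta2 was -0.46 (SE 0.12; edgeR unadjusted p = 0.011, adjusted p = 0.427, and 0.0748 to 0.999 over 10 alternatives). The log2 differences of the 3 pairs were -0.40, -0.39 and -0.58. Exons of Prosbeta2 overlap those of Reck, and reads in the shared stretch were dropped from the counts used; the strand columns together held 1.25 times as many counts, and with them the log2 fold change was -0.47.

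The ATPase Rpt6 (FBgn0020369, chromosome X, 21316052 to 21317663) had 203, 145 and 218 CPM in Prp3-RNAi libraries, against 233, 200 and 298 CPM in control libraries. Each Prp3-RNAi library lay below its paired control library, but the groups overlapped. Its log2 fold change was -0.37 (SE 0.11; edgeR unadjusted p = 0.0192, adjusted p = 0.439). Exons of Rpt6 overlap those of CG1801, and the strand columns together held 1.55 times as many counts, with a log2 fold change of -0.37. The alpha subunit Prosalpha2 (FBgn0086134, chromosome 3R, 12431321 to 12432556) had 168, 141 and 188 CPM in Prp3-RNAi libraries, against 197, 165 and 248 CPM in control libraries, again lower in each pair with overlapping groups. The fitted value was -0.29 on the log2 scale (SE 0.11, edgeR unadjusted p = 0.0407, adjusted p = 0.481). Exons of Prosalpha2 overlap those of Aos1. With the strand columns together its log2 fold change was -0.27 and the edgeR unadjusted p-value 0.0506, no longer under 0.05.

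The remaining large values were less even over the pairs or had wider errors. Prosalpha7 (FBgn0023175, chromosome 2R, 9846636 to 9847836) had 71.4, 63.6 and 106 CPM in Prp3-RNAi libraries and 102, 75.3 and 118 CPM in control libraries, a log2 fold change of -0.30 (SE 0.14). On the high side, Prosalpha5 (FBgn0016697, chromosome 2R, 17412767 to 17413769) had 101, 80.6 and 76.7 CPM in Prp3-RNAi libraries and 80.5, 59.9 and 82.6 CPM in control libraries. Its log2 fold change was 0.22 (SE 0.17), and pair 3 went the other way. Prosbeta7 (FBgn0250746, chromosome 3R, 5357012 to 5358364), a ring subunit, had 184, 135 and 160 CPM in Prp3-RNAi libraries and 132, 132 and 160 CPM in control libraries, so that nearly all of the difference lay in pair 1. Its log2 fold change was 0.17 (SE 0.14) with all pairs and 0.03 without pair 1. Rpn11 (FBgn0028694, chromosome 2L, 5058404 to 5059790) had 223, 166 and 199 CPM in Prp3-RNAi libraries and 170, 166 and 190 CPM in control libraries, a log2 fold change of 0.15 (SE 0.13), and 0.04 without pair 1.

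Among the subunits at the ends of the range of level, Prosbeta5 had 407, 333 and 480 CPM in Prp3-RNAi libraries and 487, 402 and 493 CPM in control libraries. It was lower in each pair with overlapping groups, at a log2 fold change of -0.19 (SE 0.10). Rpn10 had 374, 271 and 308 CPM in Prp3-RNAi libraries and 379, 336 and 373 CPM in control libraries, and its log2 fold change was -0.20 (SE 0.11). Rpn8 (FBgn0002787, chromosome 2R, 24400028 to 24404527), which pairs with Rpn11 in the lid, had 149, 84.6 and 91.1 CPM in Prp3-RNAi libraries and 110, 110 and 118 CPM in control libraries. Its pair 1 differed by 0.43 on the log2 scale and pairs 2 and 3 by -0.38 each, which gave a fitted value of -0.11 (SE 0.20). Prosbeta1 had 133, 107 and 160 CPM in Prp3-RNAi libraries and 118, 124 and 178 CPM in control libraries, a log2 fold change of -0.07 (SE 0.13). Prosbeta3 had 276, 186 and 309 CPM in Prp3-RNAi libraries and 249, 212 and 360 CPM in control libraries, with -0.09 (SE 0.12). Rpn2 had 70.3, 60.7 and 41.9 CPM in Prp3-RNAi libraries and 84.5, 52.0 and 35.6 CPM in control libraries. Pair 3 was the lowest for Rpn2 in both groups, and the log2 fold change was 0.06 (SE 0.18), with the sign changing when pair 2 or pair 3 was left out.

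Over the 31 somatic subunits, the median log2 fold change was -0.09, beside 0.01 over all tested genes, and single values ran from -0.46 to 0.22. Values were below 0 for 24 subunits and above 0 for 7, where 49.1% of all tested genes were below 0. This split depended on the scaling. On log2 TPM, 12 subunits were lower and 19 higher, with a median of 0.02 beside 0.12 over all tested genes. With library totals alone, 20 were lower and 11 higher, with a median of -0.03 beside 0.08. Relative to the median of all genes, the subunits stood at -0.10 under each of the 3 scalings. The scalings differ almost only by a factor per library, which this subtraction removes. Their agreement was therefore fixed in advance and is no separate support. The TMM-scaled median was -0.04 without pair 2 and -0.13 without pair 1. Lower in all 3 pairs were 8 subunits, and Prosbeta7 was higher in all 3, against 17.6% and 17.5% of tested genes.

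**Figure D2:**
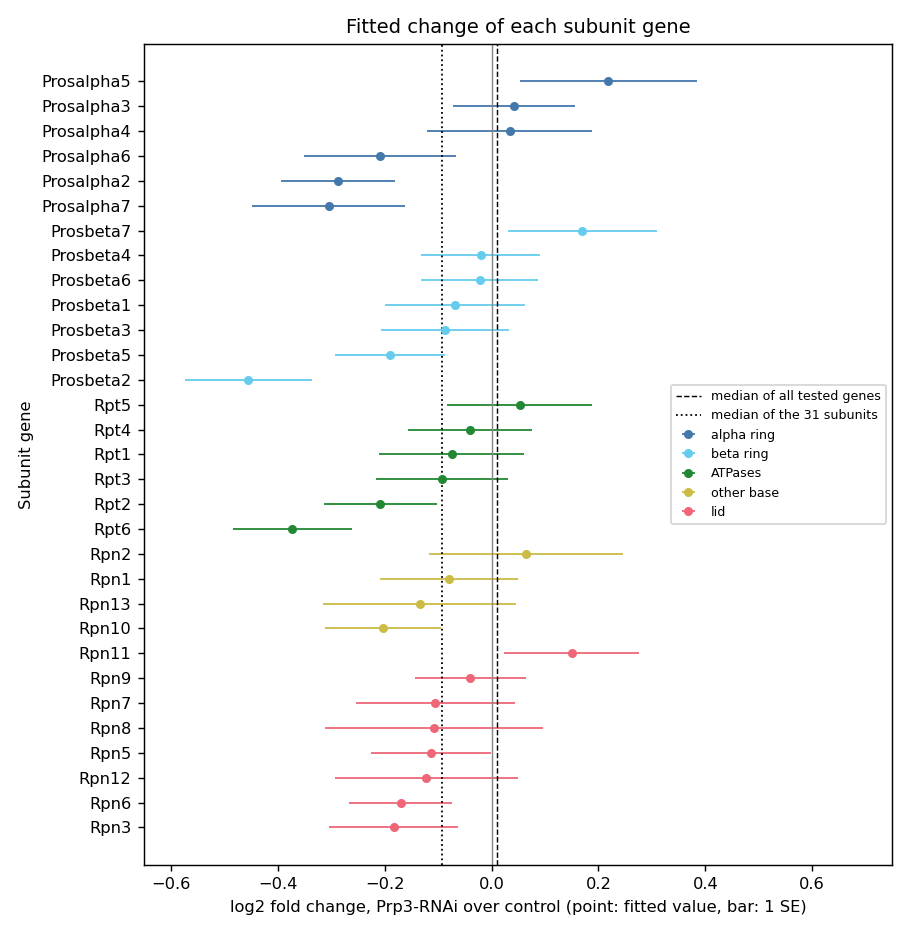
Fitted log2 fold change, Prp3-RNAi over control, of the 31 measured somatic subunit genes (points) with 1 standard error on each side (bars), coloured by part of the proteasome; the dashed line is the median of all tested genes (0.01) and the dotted line that of the subunits (-0.09). Prosbeta2, at -0.46, stands farthest from 0, and no subunit was called by edgeR.

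The medians of the parts of the proteasome lay close to each other. The median log2 fold change was -0.09 for the 6 measured alpha subunits, -0.07 for the 7 beta subunits, -0.08 for the 6 ATPases, -0.11 for the 4 other base subunits and -0.11 for the 8 lid subunits. Within a part, values spread more widely than these medians: the alpha ring held 3 subunits below 0 and 3 above, from -0.30 to 0.22. Subunits were also grouped by their annotated introns, since Prp3 belongs to the spliceosome. The median log2 fold change was -0.10 for the 4 subunits without an intron (Prosbeta3, Rpt1, Rpn7 and Rpn12), -0.13 for the 4 with 1 intron, -0.08 for the 16 with 2 and -0.11 for the 7 with 3 or more. Over all tested genes the same classes gave -0.05, -0.03, 0.00 and 0.03. Rpn1 begins 2546 bases beyond the end of Prp3 on the same strand. It had 163, 154 and 164 CPM in Prp3-RNAi libraries and 190, 176 and 145 CPM in control libraries, a log2 fold change of -0.08 (SE 0.13).

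Prp3-RNAi library 2 was the lowest of the 6 libraries for 23 of the 31 subunits, and for 14.2% of all tested genes. Control library 3 was the highest for 15 of the 31, and for 20.4% of all tested genes. Summed over the somatic subunits, the level was 5851, 4681 and 6082 CPM in Prp3-RNAi libraries 1 to 3, against 6049, 5216 and 6611 CPM in control libraries 1 to 3. Both members of pair 2 were thus the lowest of their group. The 3 libraries with the highest sums, Prp3-RNAi library 3 and control libraries 1 and 3, were those with the highest Pdf level. In that order, they were also highest for the glia gene Gs2, at 257, 222 and 502 CPM, against no more than 105 CPM elsewhere. The same held for the photoreceptor gene ninaE, at 40.3, 54.0 and 43.5 CPM, against no more than 2.95 CPM elsewhere. Other markers of these cells, such as nrv2 and ninaC, had another order. The part of these marker differences in the subunit levels was not tested. Control library 3, the highest, was also highest for 3 of the 4 blood cell markers and lowest for the other, Pxn, and their part was not tested either; without pair 3 the median log2 fold change of the subunits was -0.10. In whole sorted samples, fewer cells of a type and less RNA per cell cannot be told apart. Within a group, the coefficient of variation between libraries had a median of 18.0% over the subunits in Prp3-RNAi and 14.3% in control. For the 2705 tested genes within the subunits' range of mean CPM it was 17.9% and 19.1%.

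**Figure D3:**
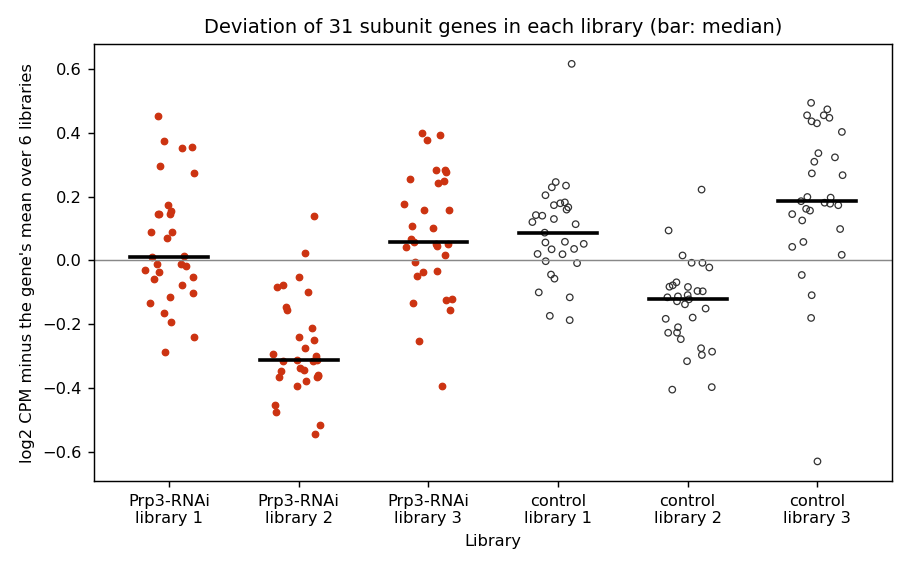
Deviation of each of the 31 somatic subunit genes in each library, as log2 CPM minus the gene's mean over the 6 libraries; filled red points are Prp3-RNAi libraries, open points control libraries, and bars the medians. Prp3-RNAi library 2 lies lowest, with a median of -0.31, and control library 3 highest, with 0.19.

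The 15 testis-type paralogs were close to silent. Together they took 148, 126 and 19 counts in Prp3-RNAi libraries 1 to 3 and 12, 63 and 24 counts in control libraries 1 to 3, out of 147458 to 193074 somatic subunit counts in a library. As shares of all subunit counts this was 0.084% (95% exact binomial interval 0.071% to 0.0986%), 0.0853% (0.0711% to 0.102%) and 0.0107% (0.00644% to 0.0167%) in Prp3-RNAi. In control libraries it was 0.00621% (0.00321% to 0.0109%), 0.0427% (0.0328% to 0.0546%) and 0.0157% (0.0101% to 0.0234%). The intervals cover counting error only, since amplified reads are not independent molecules, and the groups overlapped. A count of 0 in a library allows up to 3 counts, or 0.0979 to 0.104 CPM in Prp3-RNAi libraries and 0.0922 to 0.123 CPM in control libraries, here by library totals alone.

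Of the 15, 8 had no count in any library: Prosalpha3T, Prosalpha6T, Prosbeta2R1, Prosbeta4R1, Prosbeta4R2, Prosbeta5R1, Prosbeta5R2 and Rpn12R. Prosbeta2R2, Prosalpha4T2 and Rpt4R had 1 or 2 counts over all libraries. The 4 with at least 10 counts were uneven between libraries. Rpt3R (FBgn0037742, chromosome 3R, 9754735 to 9756510), the paralog of the ATPase Rpt3, had 121, 71 and 0 counts in Prp3-RNAi libraries, against 0, 0 and 13 counts in control libraries, beside 8045 to 10157 counts of Rpt3. Rpt3R was high in Prp3-RNAi libraries 1 and 2, and the groups overlapped. Its largest share of the Rpt3 and Rpt3R counts was 1.23% (95% exact binomial interval 1.02% to 1.47%), in Prp3-RNAi library 1. The log2 fold change of Rpt3R was 6.04 (SE 5.11, edgeR adjusted p = 0.743), and 2.24 with the strand columns together. Exons of Rpt3R overlap those of Alg12, so its counts are less certain.

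Rpn13R (FBgn0029745, chromosome X, 5131898 to 5132985), the paralog of the ubiquitin receptor Rpn13, was the single paralog with counts in all 6 libraries. It had 26, 39 and 6 counts in Prp3-RNAi libraries, against 12, 35 and 3 counts in control libraries, with an edgeR adjusted p-value of 0.915. Library 2 was highest and library 3 lowest in both groups. Rpt6R (FBgn0039788, chromosome 3R, 30582198 to 30583697) had 0, 0 and 12 counts in Prp3-RNAi libraries, against 0, 25 and 8 counts in control libraries. Prosalpha4T1 (FBgn0265606, chromosome 3R, 20748184 to 20749074) had 16 counts in Prp3-RNAi library 2 and 0 in the other 5 libraries. Neither passed the filter on low counts. Of 14 genes used as testis markers, 11 averaged under 1 CPM and 6 had no count: bam, aly, comr, dj, Mst84Da and Mst87F. The exceptions were bol, at 327 to 487 CPM in Prp3-RNAi and 307 to 386 CPM in control libraries, mia and can. For mia the values were 18.2, 9.11 and 13.2 CPM in Prp3-RNAi and 2.44, 9.76 and 5.46 CPM in control libraries. For can they were 0, 0 and 0 CPM in Prp3-RNAi and 0.439, 4.85 and 0.780 CPM in control libraries, without overlap (edgeR unadjusted p = 0.0314, adjusted p = 0.470). Such an order was seen for 5.34% of tested genes.

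**Figure D4:**
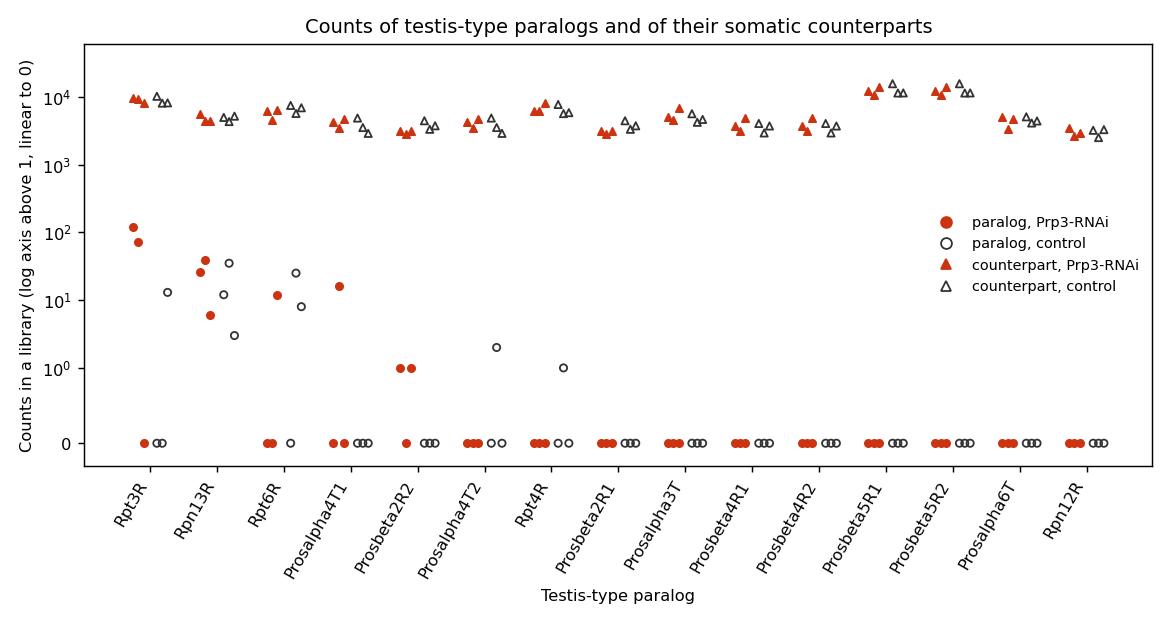
Counts per library (log axis above 1, linear from 0 to 1) of the 15 testis-type paralogs (circles) and of their somatic counterparts (triangles), with Prp3-RNAi filled in red to the left of control, open, for each gene. Counterparts have at least 2497 counts in each library, paralogs reach at most 121 counts, and 8 paralogs have no count.

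Genes that work with the proteasome were taken from 5 lists of 41 genes, of which 40 were tested. By edgeR 0 of them were called, as were 0% of tested genes. Unadjusted p-values below 0.05 were found for 3, all lower in Prp3-RNAi, or 7.5% beside 9.98% of all tested genes. Fold changes were below 0 for 21 and above 0 for 19, with a median of -0.03 on the log2 scale. Of the 9 assembly factors and regulators, 0 had an unadjusted p-value under 0.05. Among them Pomp, a chaperone of core particle assembly, had 222, 157 and 218 CPM in Prp3-RNAi libraries and 214, 167 and 213 CPM in control libraries, a log2 fold change of 0.00 (SE 0.10). Sem1, the small lid subunit that the symbol rule leaves out, had 53.8, 48.7 and 66.5 CPM in Prp3-RNAi libraries and 52.8, 52.4 and 81.2 CPM in control libraries, a log2 fold change of -0.12 (SE 0.16). The groups of ntc, of the same list, did not overlap, as for 5.34% of tested genes in this direction. It had 18.2, 15.9 and 19.4 CPM in Prp3-RNAi and 25.7, 19.8 and 30.0 CPM in control libraries, a log2 fold change of -0.48 (SE 0.28). Of the 5 genes of the CncC pathway, which raises proteasome genes under stress, 0 had an unadjusted p-value under 0.05. Its transcription factor cnc had 31.9, 32.9 and 36.6 CPM in Prp3-RNAi libraries and 39.5, 25.7 and 35.2 CPM in control libraries, a log2 fold change of 0.03 (SE 0.23).

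Ubi-p63E (FBgn0003943, chromosome 3L, 3899259 to 3903184), a polyubiquitin gene, was the 1 of 5 ubiquitin and E1 genes with an unadjusted p-value under 0.05. It had 230, 262 and 222 CPM in Prp3-RNAi libraries, against 313, 556 and 332 CPM in control libraries. The groups did not overlap, as for 5.34% of tested genes in this direction. The fitted value was -0.70 on the log2 scale (SE 0.15; adjusted p = 0.405 by edgeR and 0.000799 by DESeq2, which called it). The other polyubiquitin gene, Ubi-p5E, had 1408, 1113 and 1349 CPM in Prp3-RNAi libraries and 1328, 1013 and 1334 CPM in control libraries, a log2 fold change of 0.08 (SE 0.08). SkpA (FBgn0025637, chromosome X, 656114 to 657899), the adaptor of the SCF ubiquitin ligases, was the 1 of 15 tested genes of the SCF, Cul3 and signalosome list at this level. It had 848, 671 and 1012 CPM in Prp3-RNAi libraries, against 1115, 785 and 1299 CPM in control libraries, lower in each pair with overlapping groups. The fitted value was -0.33 (SE 0.09; adjusted p = 0.428 by edgeR and 0.0025 by DESeq2, which called it). Ufd1-like (FBgn0036136, chromosome 3L, 11121966 to 11123216), a cofactor of the p97 ATPase, was the 1 of 6 genes of the shuttle and p97 list, with 119, 126 and 141 CPM in Prp3-RNAi libraries, against 166, 138 and 192 CPM in control libraries. The fitted value was -0.35 (SE 0.13, edgeR adjusted p = 0.471). Exons of Ufd1-like overlap those of mRpL2, and the strand columns together held 1.41 times as many counts. With them the log2 fold change was -0.26 and the edgeR unadjusted p-value 0.0608, no longer under 0.05.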

How the data were processed

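Per the labels, cDNA was made from sorted cells with a low-input kit and tagmented. The deposited values are whole-number read counts per gene, not normalized, with lines for unmapped, multimapping, featureless and ambiguous reads; these took 18.5% to 24.4% of the reads and were left out. STAR 2.7.0a, Trim Galore 0.6.7 and build dm6 are named in the submitters' processing notes; the annotation is not given in the sources used here. The column of counts for both strands together was used, which drops reads in stretches shared by overlapping genes, as in 12 of the 31 measured subunits. Depth was 24477244 to 32551739 gene counts.

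Genes were kept by filterByExpr (min.count 10, min.total.count 15; 8708 of 17868) and tested with edgeR 4.0.16 (glmQLFit, glmQLFTest, two-sided, TMM) in R 4.3.3, with the pair as a block and Benjamini-Hochberg adjustment over all tested genes at 0.05. Titles state the pairs, not what they share; deviations from group means correlated at 0.046, 0.266 and 0.236 within pairs 1 to 3 and at -0.252 to 0.0203 otherwise. Log2 CPM used a prior count of 2, and log2 TPM a pseudocount of 0.1. TPM used union exon lengths of the Ensembl annotation (BDGP6.54), matched by symbol for 17766 genes, with all 47 members among them. TPM is not TMM-scaled, so it serves for levels within a library. DESeq2 1.42.0 and limma 3.58.1 (voom) were alternatives.

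Described in full are members with an unadjusted p-value under 0.05, and the 3 highest and 3 lowest somatic subunits by fold change and by level. So are paralogs with at least 10 counts and the catalytic subunits. Of each pathway list, up to 3 genes with the smallest unadjusted p-value under 0.05 are also described. Sem1, Pomp, ntc, cnc and Ubi-p5E were added after their values were seen. Rpn8, next lowest by level after Prosalpha1, Rpn2 and Rpn1, is described as well. The members and lists were chosen with earlier results of these data known.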

Additional observations from a re-analysis of the deposited data

How the results depend on the processing

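Over the 10 alternative fits, 0 members were called in any, including the fit without the replicate block. The count of all genes called, 0 in the edgeR fit with the block, was 8 with no replicate block, 380 with DESeq2, 4 with limma-voom, 11 with a filter of at least 1 count, and 0 to 4 when a pair was left out. Members with an unadjusted p-value under 0.05, of which there were 3, numbered 1 with no replicate block and 0 to 2 when a pair was left out. They numbered 4 with DESeq2, beside 14.9% of tested genes, and 2 with the strand columns together, beside 9.93%. With DESeq2, 1 of them was the paralog Rpt3R, which was higher in Prp3-RNAi (log2 fold change 7.37, DESeq2 unadjusted p = 0.0127). The median log2 fold change of the somatic subunits ran from -0.125 to -0.0396 when a pair was left out, and was -0.0255 with library totals only and 0.0243 on log2 TPM, alternatives chosen after seeing the data. The coefficient of variation of level across subunits, 49.1%, was 52.0% with coding length and 44.0% for subunits without exon overlap, which was also chosen after seeing the data. Single genes were followed over the fits for 19 genes, which do not include Rpn8, Pomp, Sem1, ntc, cnc and Ubi-p5E. Of the 19, 3 changed sign, each when a pair was left out. The log2 fold change ran from -0.0191 to 0.242 for Rpn2 (0.06 with all pairs), from -0.203 to 0.00241 for Rpn1 (-0.08) and from -0.176 to 0.0155 for Prosbeta1 (-0.07). The replicate block changed the call of no named gene. The cause of these shifts was not tested. The somatic subunits had at least 821 counts in every library, while 11 of the 15 paralogs had fewer than 10 counts in all, too few for a comparison.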
